A study of Mus musculus with 12 samples.

Results

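The comparison described here is between bone marrow-derived dendritic cells (BMDCs) labelled Pde5 knockout and wild-type (WT) BMDCs, both kept without lipopolysaccharide (LPS). It rests on 4 of the 12 mouse RNA-seq libraries of the series, 2 per group. Of 32190 gene symbols in the BMDC table, 13072 had enough counts to be tested. The labels give all BMDC libraries a time of 9 days, a genotype of WT or Pde5 knockout, and a cell type of immune cells only. The design text calls the knockout mice Pde5-/-, and does not say which part of the gene was removed. The other BMDC libraries, 2 per genotype label, had received 200 ng/ml LPS for 12 h (LPS is a bacterial cell wall component that triggers Toll-like receptor 4). They entered the same fit and are given here as a scale for the unstimulated values. The remaining 4 libraries, dendritic cells from MC38 colon carcinomas, were not used here. The labels do not say whether replicates came from separate mice or cultures, so p-values reflect only how these libraries varied, a spread that could be technical. The extraction text in the labels describes another tissue, and no culture conditions for the BMDCs were found in the sources used here.

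Dendritic cells (DCs) take up antigen, and on sensing microbial products or inflammatory cytokines they mature, raise costimulatory molecules and the chemokine receptor Ccr7, and present antigen to T cells. The Pde5a enzyme hydrolyses cyclic GMP, the second messenger made by guanylate cyclases in response to nitric oxide or natriuretic peptides. Toll-like receptor 4 signals through NF-kappaB and through type I interferon, which acts back on the cell through its receptor.

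Pde5a itself (chr3:122729158-122859374, GRCm38) was counted 55 and 37 times in the WT libraries and 47 and 61 times in the knockout-labelled libraries (replicates 1 and 2). The groups overlapped, and the log2 fold change of knockout label over WT was 0.12 ± 0.48 (SE, n = 2 per group; edgeR quasi-likelihood test, adjusted p = 0.887). With LPS, Pde5a was counted 52 and 20 times in WT and 22 and 43 times under the knockout label. Counts over the whole gene therefore did not separate the labels in either state. A deletion of a few exons need not lower such a count, so the labels could not be checked from it. The groups are named below as labelled.

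The unstimulated knockout-labelled libraries stood apart from the unstimulated WT libraries in the direction of the LPS libraries. Across the tested genes, Pearson correlations of log2(CPM + 1), where CPM is counts scaled to a common library total, were 0.950 to 0.979 between unstimulated knockout-labelled and unstimulated WT libraries. The same 2 libraries correlated at 0.981 to 0.991 with WT libraries that had received LPS and at 0.977 to 0.992 with knockout-labelled libraries that had received LPS. These are correlations across genes within pairs of libraries and carry no test. On the first principal component, which held 70.1% of the variance, the unstimulated WT libraries lay at -52.9 and -61.9, the LPS libraries at 20.1 to 32.7, and the unstimulated knockout-labelled libraries at 15.7 and -10.6. The labels give no LPS treatment for those 2 libraries. Whether an exposure to LPS, another stimulus or the genotype set their position was not tested, and genotype and anything else that differed between these cultures cannot be told apart. Both libraries of the group were shifted towards the LPS libraries, replicate 1 further than replicate 2. Replicate 1 correlated with the unstimulated WT libraries at 0.9591 and 0.9505, and replicate 2 at 0.9787 and 0.9739. Because both were shifted, no value free of the shift can be given.

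**Figure D1:**
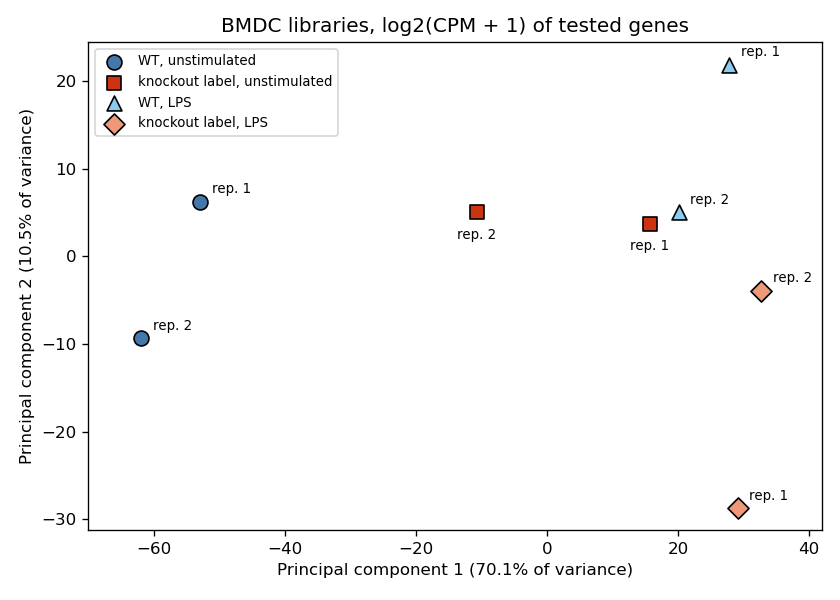
Principal components 1 and 2 of log2(CPM + 1) over the tested genes, 1 point per BMDC library. The unstimulated knockout-labelled libraries (15.7 and -10.6 on component 1) lie between the unstimulated WT libraries (-52.9 and -61.9) and the LPS libraries (20.1 to 32.7).

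Total counts per BMDC library were 16.1 to 19.7 M, and tested genes held at least 99.92% of them. The scaling factors of the trimmed mean of M-values (TMM) were 1.073 and 1.104 in unstimulated WT, 0.996 and 1.029 in unstimulated knockout-labelled and 0.9443 to 0.9677 in LPS libraries. All CPM values below are scaled by them.

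At an adjusted p under 0.05, 2357 of the 13072 genes differed between the unstimulated groups, which is 18.0% of those tested. Of these, 1575 were higher under the knockout label (12.0%) and 782 were lower (5.98%). The share called rose with level, from 4.22% of genes below an average log2 CPM of 0 to 40.4% of those above 8. The shares over all tested genes, 12.0% higher and 5.98% lower, are the background for every list count below. They do not allow for the rise with level. The CPM of the groups did not overlap for 64.0% of all tested genes, and for all 2357 that passed. The larger differences were mostly increases. More than 2-fold, 648 genes were higher and 172 lower, and more than 8-fold, 143 were higher and 6 lower. The median log2 fold change over all tested genes was -0.011. With library size alone as the scale that median was -0.115, and 1282 genes were higher and 1301 lower, so that 49.6% of the calls were increases in place of 66.8%. Knockout-labelled replicate 1 lay further from the WT mean than replicate 2 in 1510 of the 1575 higher and 735 of the 782 lower genes. Without that replicate 593 genes passed, 527 of them higher. Without WT replicate 2, 861 passed, 737 of them higher, and a fit of the 4 unstimulated libraries alone gave 993 genes, 784 of them higher.

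**Figure D2:**
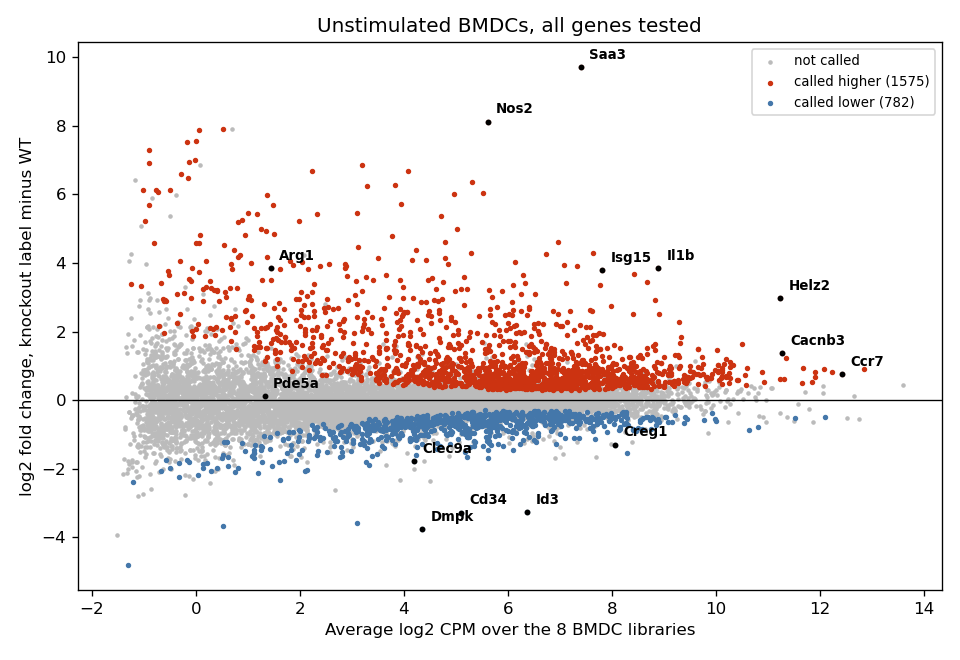
Log2 fold change (knockout label minus WT, unstimulated) against average log2 CPM for the 13072 tested genes, with called genes coloured and some described genes named. Increases (1575) reach further from 0 than decreases (782), and Pde5a lies near 0.

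Among called genes averaging 2 or more in log2 CPM, the leading increases were in acute-phase, nitric oxide and interferon-inducible genes that were nearly silent in WT. Saa3 (chr7:46711998-46719615), a serum amyloid A protein made by activated macrophages and fat tissue, stood at 0.94 and 0.281 CPM in WT and at 720 and 319 CPM under the knockout label, a log2 fold change of 9.71 ± 0.79 (adjusted p = 0.00111). Nos2 (chr11:78920787-78960226), the inducible nitric oxide synthase, stood at 0.553 and 0.281 CPM in WT and at 154 and 83.7 CPM under the knockout label (8.13 ± 0.43, adjusted p = 0.000502). Fpr2, a formyl peptide receptor that senses bacterial peptides, stood at 0 and 0.281 CPM against 20.7 and 13.1 CPM (6.85 ± 0.57, adjusted p = 0.000793). In each of these genes every knockout-labelled library lay far above every WT library, in a ranking that took only genes whose groups did not overlap.

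These 3 genes were also higher in the unstimulated knockout-labelled libraries than in any library with LPS. With LPS, Saa3 was at 92.9 and 85.8 CPM in WT and at 39.6 and 90.6 CPM under the knockout label. Nos2 was at 24.4 and 24.6 CPM in WT with LPS and at 53.9 and 47.7 CPM under the knockout label with LPS, and Fpr2 ranged from 7.94 to 10.1 CPM over those 4 libraries. Hp, which encodes the hemoglobin-binding plasma protein haptoglobin, went from 1.93 and 2.53 CPM in unstimulated WT to 33.4 and 22.6 CPM under the knockout label, against 6.83 to 12 CPM with LPS. Arg1, the arginase that competes with Nos2 for arginine, went from 0.387 and 0.731 CPM to 9.92 and 6.42 CPM, while the LPS libraries held 0.238 to 1.16 CPM. The knockout-labelled unstimulated level of Arg1 thus had no counterpart in the libraries that received LPS.

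The next increases in size were a mixed group. Slfn1 and Slfn4 are interferon-inducible Schlafen genes, and Slfn1 rose from 0.332 and 0.562 CPM to 46.5 and 27.5 CPM (log2 fold change 6.35 ± 0.46). Ifi206, a member of the Ifi200 family of nucleic acid sensors, rose from 0.608 and 1.07 CPM to 68.5 and 42.1 CPM, and H2-Q10, a nonclassical MHC class I gene, from 0.553 and 0.506 CPM to 43.4 and 26.5 CPM. Iigp1 and Gbp6, interferon-inducible GTPases that act on intracellular pathogens, rose by 5.72 ± 0.89 and 5.45 ± 0.52. Gstt1, a glutathione transferase, and Wfdc9, a whey acidic protein-like gene, rose by 6.27 ± 0.65 and 6.26 ± 0.44. Fold changes of genes near 0 in WT are imprecise. Olfr56, annotated as an olfactory receptor, had 2 counts in the WT libraries together and 249 under the knockout label, a ratio of 115 after scaling (95% interval 31.6 to 958, for counting error only). Slfn4 had 7 WT counts against 794 (ratio 105, interval 50.8 to 262). Schlafen, Ifi200, Gbp and H2-Q genes have close paralogs, so their counts could be split between copies, and Wfdc9 overlaps Wfdc10. The adjusted p of Iigp1 was 0.0541 without knockout-labelled replicate 1.

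**Figure D3:**
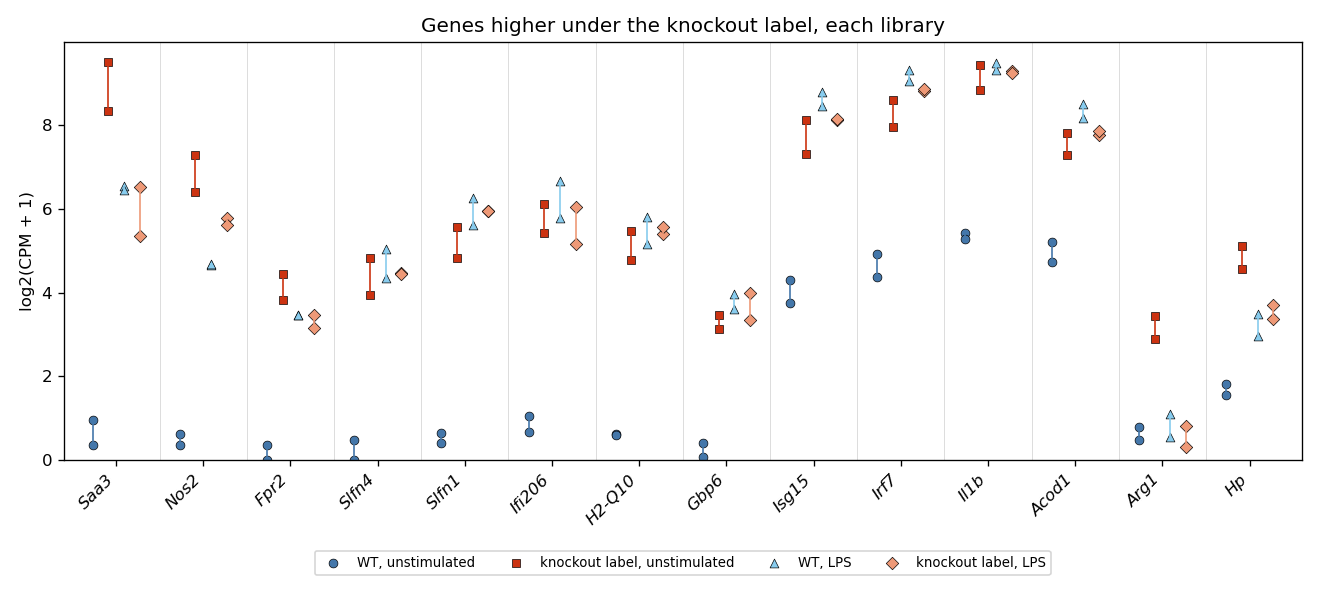
Log2(CPM + 1) of 14 genes higher under the knockout label, with the 2 libraries of each BMDC group joined by a line. The unstimulated knockout-labelled libraries lie above the WT ones throughout, near the LPS libraries for most genes and above all of them for Saa3, Nos2, Fpr2, Arg1 and Hp.

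The 6 genes described next had the highest CPM among those that rose more than 2-fold. Helz2, a coactivator helicase induced by interferon, rose from 406 and 343 CPM to 3659 and 2247 CPM (2.98 ± 0.23, adjusted p = 0.000662). Cacnb3, a calcium channel subunit strongly expressed in mature DCs, rose from 1170 and 982 CPM to 3163 and 2378 CPM (1.36 ± 0.21), and Pfkfb3, which makes the activator of phosphofructokinase, from 1341 and 985 CPM to 3123 and 2287 CPM (1.22 ± 0.22). Neat1, a nuclear long noncoding RNA, rose by 1.64 ± 0.25, Wnk1, a kinase of ion transport, by 1.20 ± 0.18, and Bhlhe40, a transcription factor of cytokine control, by 1.03 ± 0.16. Naming these 6 genes required groups that did not overlap, and left out predicted and other unnamed genes. The call of Pfkfb3 was lost without knockout-labelled replicate 1 (adjusted p = 0.057).

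Of 16 tested nitric oxide and cGMP genes, the pathway in which Pde5a works, 3 were higher (Nos2, Npr1 and Gch1) and 0 lower. The share called, 18.8%, lies near the 18.0% of all tested genes. Npr1, a natriuretic peptide receptor that is itself a guanylate cyclase, stood at 31.7 and 16.6 CPM in WT and at 77.8 and 59.1 CPM under the knockout label (1.50 ± 0.29, adjusted p = 0.0166). Gch1, which makes the cofactor that Nos2 needs, stood at 14.1 and 12 CPM against 22.9 and 17.7 CPM (0.64 ± 0.17, adjusted p = 0.0322). Leaving out knockout-labelled replicate 1 gave an adjusted p of 0.142 for Npr1 and 0.248 for Gch1, and without WT replicate 2 that of Gch1 was 0.165.

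Other phosphodiesterases that hydrolyse or bind cyclic GMP did not pass. Pde1b had a log2 fold change of 0.43 ± 0.14 (adjusted p = 0.0565), Pde10a of 1.93 ± 0.62 (adjusted p = 0.063) from levels of 0.221 and 0.675 CPM in WT and Pde3b of 0.05 ± 0.19 (adjusted p = 0.882). Pde6d, which despite its name encodes a chaperone of prenylated proteins, was at 0.34 ± 0.12 (adjusted p = 0.0742). The cyclic GMP-dependent kinase gene Prkg1 was at -0.28 ± 0.23 (adjusted p = 0.422), and the natriuretic peptide receptor Npr2 at -0.57 ± 0.31 (adjusted p = 0.228). The exporters Abcc4 and Abcc5 were at 0.14 ± 0.15 and 0.35 ± 0.26. Vasp, a cytoskeletal target of that kinase, was at 0.40 ± 0.12 with an adjusted p of 0.05 after rounding, just outside the threshold. Nosip and Nostrin, regulators of nitric oxide synthases, and Ddah2, which degrades a natural inhibitor of them, were at 0.30, 0.10 and 1.00 and did not pass. The subunits of soluble guanylate cyclase were below the count filter: Gucy1a1 was counted 7 and 9 times in WT and 3 and 7 times under the knockout label, and Gucy1b1 7 and 18 times against 0 and 2.

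Cyclic AMP and cyclic GMP share several phosphodiesterases, and the cyclic AMP list had 9 of 29 members higher and 2 lower, with a median log2 fold change of 0.118. Pde4d, a cyclic AMP phosphodiesterase, was at 19.1 and 15.9 CPM in WT against 32.4 and 29.4 CPM (0.82 ± 0.13). Crem, a cyclic AMP-inducible transcription factor, rose by 0.86 ± 0.15 and Adora2a, an adenosine receptor that raises cyclic AMP, by 0.61 ± 0.12. Adcy7, a cyclase that makes it, fell by 0.60 on the log2 scale, from 209 and 206 CPM to 120 and 152 CPM. In the fit without knockout-labelled replicate 1, 1 member was higher and 1 lower, and Crem and Adora2a had adjusted p of 0.0572 and 0.0925. For Adora2a it was 0.0694 without WT replicate 2.

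The type I interferon response rose almost as a whole. Of 38 tested members 37 were higher and 0 lower, against 12.0% and 5.98% of all tested genes, and the list's median log2 fold change was 2.19. The member that did not pass, Ifi203 of the Ifi200 family, stood at 85.2 and 131 CPM in WT and at 79.4 and 82.3 CPM under the knockout label. Isg15, a ubiquitin-like protein conjugated to targets during antiviral responses, rose from 12.5 and 18.7 CPM to 275 and 157 CPM (3.79 ± 0.32, adjusted p = 0.000984). Irf7, which amplifies the production of type I interferon, rose from 19.8 and 29.2 CPM to 386 and 246 CPM (3.69 ± 0.27). For each gene both knockout-labelled libraries lay above both WT libraries, as held for every gene called higher. The summed CPM of the list was 1534 and 1685 in WT, 6767 and 4486 under the knockout label and 7231 to 11290 in the LPS libraries. In the comparison of labels with LPS the median was -0.343. There were 25 members higher without knockout-labelled replicate 1 and 31 without WT replicate 2.

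The interferon-gamma list showed 21 of 25 members higher and 1 lower, with a median of 2.12. Gbp5, a guanylate-binding protein that promotes inflammasome activation, rose from 57.3 and 54.5 CPM to 526 and 314 CPM (2.91 ± 0.24). Tgtp1, an interferon-inducible GTPase with a close copy, rose from 1.33 and 1.46 CPM to 26.8 and 17.2 CPM (3.97 ± 0.26). Cxcl9 and Cxcl10, chemokines that draw activated T cells through Cxcr3, rose by 3.82 ± 0.64 and 3.20 ± 0.46, Cxcl10 from 2.38 and 6.02 CPM to 47.2 and 29.8 CPM. The member that fell was Ciita, the coactivator on which MHC class II transcription depends, from 400 and 414 CPM to 236 and 306 CPM (-0.59 ± 0.16, adjusted p = 0.0414). Ciita overlaps Dexi. Leaving out WT replicate 1, WT replicate 2 or knockout-labelled replicate 1 took its adjusted p to 0.0896, 0.15 and 0.245, and leaving out knockout-labelled replicate 1 took that of Cxcl10 to 0.0588. Without that replicate 15 members were higher and 0 lower.

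Promoter stretches of 4 of these interferon-responsive genes are shown as examples, and genes with larger increases, such as Iigp1 and Gbp6, are not shown. Each stretch holds the interferon-stimulated response core TTTCNNTTT on either strand, with overlapping matches joined. All are read 5′ to 3′ on the gene's strand from the RefSeq promoter table of GRCm38.p6, upstream of the start, with the matched bases in capitals. They are Isg15 at chr4:156200851-156200919 (minus strand), Gbp5 at chr3:142496745-142496807 (plus strand), Slfn1 at chr11:83116764-83116819 (plus strand) and Ifi206 at chr1:173491325-173491381 (minus strand).
Isg15: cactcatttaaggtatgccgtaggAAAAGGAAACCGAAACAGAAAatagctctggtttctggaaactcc
Gbp5: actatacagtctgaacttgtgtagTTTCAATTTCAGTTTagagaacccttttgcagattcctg
Slfn1: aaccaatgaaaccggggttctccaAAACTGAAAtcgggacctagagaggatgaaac
Ifi206: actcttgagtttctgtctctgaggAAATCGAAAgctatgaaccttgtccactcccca

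Over the 250 bases upstream, the same core was found in 748 of the 10301 tested genes with a promoter entry (7.26%) and in 9.52% of all 27025 promoters in the table. Among called genes it was found in 139 of 1235 higher (11.3%) and 54 of 627 lower (8.61%), and in 30 of the 107 that were higher more than 8-fold (28%). It was found in 16 of 27 type I interferon list members with an entry (59.3%) and 11 of 13 interferon-gamma members (84.6%). A match describes the letters only and does not show that a factor binds there. No test was made of these shares.

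The inflammatory NF-kappaB list had 16 of 31 members higher and 0 lower (median 0.635), and 8 were higher without knockout-labelled replicate 1. Il1b, which encodes interleukin-1 beta, rose from 41.6 and 37.9 CPM to 691 and 454 CPM (3.85 ± 0.20, adjusted p = 0.000415), the smallest adjusted p of the comparison. Its counts overlap those of the antisense gene Il1bos. Acod1, which makes the antimicrobial metabolite itaconate, rose from 25.6 and 35.9 CPM to 224 and 155 CPM (2.62 ± 0.23). The knockout-labelled libraries again lay well above WT for both genes. Il6 rose from 8.46 and 6.36 CPM to 47.4 and 28.1 CPM (2.35 ± 0.25), and the T cell chemokine Ccl5 from 582 and 501 CPM to 1291 and 952 CPM (1.05 ± 0.16).

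Tnf and Il12b, also classical LPS-inducible cytokines, did not pass. Tnf stood at 14.9 and 17.9 CPM in WT and at 9.86 and 13 CPM under the knockout label (-0.51 ± 0.20, adjusted p = 0.106). Il12b, the shared subunit of interleukins 12 and 23, stood at 754 and 463 CPM in WT and at 870 and 766 CPM (0.43 ± 0.23, adjusted p = 0.227). Tnf and Il12b were picked after their values were seen. Of the 24 tested T cell-polarising and inflammatory cytokines, 11 were higher and 1 lower, with a median of 1.06. Il18bp, a decoy that neutralises interleukin-18, rose from 12.6 and 13.4 CPM to 53.2 and 42.4 CPM (1.88 ± 0.13). The member that fell was Il16, a T cell chemoattractant, from 27.5 and 38 CPM to 10.2 and 16.8 CPM (-1.28 ± 0.27), and its adjusted p was 0.0932 without WT replicate 2 and 0.0914 without knockout-labelled replicate 1. Without the latter 6 members of the list were higher and 0 lower.

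The following stretches hold the NF-kappaB consensus (10 bases, both strands, matched bases in capitals) and belong to 3 genes of this pathway or of antigen presentation that were called higher. They come from the same RefSeq table, and in H2-K1 2 overlapping matches are joined. Il6 lies at chr5:30013046-30013103 (plus strand), Cxcl10 at chr5:92348959-92349016 (minus strand) and H2-K1 at chr17:34000424-34000482 (minus strand).
Il6: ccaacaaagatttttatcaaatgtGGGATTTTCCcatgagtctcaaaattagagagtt
Cxcl10: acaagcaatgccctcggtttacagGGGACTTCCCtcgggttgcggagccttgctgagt
H2-K1: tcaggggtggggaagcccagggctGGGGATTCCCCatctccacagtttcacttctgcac

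The consensus was found in 8.66% of tested promoters, in 11.7% of those called higher, in 8.77% of those called lower and in 9 of 22 members of the NF-kappaB list with an entry (40.9%). It was found in 7.01% of all promoters in the table.

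Of the machinery that senses LPS, the co-receptor Cd14 rose from 27.2 and 43.8 CPM to 172 and 116 CPM (2.02 ± 0.30, adjusted p = 0.00661), above or within the 84.7 to 130 CPM of the LPS libraries. Tlr4, the receptor, stood at 23.3 and 27.3 CPM against 15.7 and 18.3 CPM (adjusted p = 0.106), and its partner Ly96 at 8.46 and 6.75 CPM against 6.45 and 7.26 CPM (adjusted p = 0.691). Tlr4 and Ly96 were picked after their values were seen. Of 25 tested genes of the Toll-like receptor pathway, 5 were higher and 4 lower, against 12.0% and 5.98% of all tested genes. The adaptor Myd88 rose by 0.46 ± 0.09 and Irak3, a brake on the pathway, by 1.12 ± 0.20. The receptors that fell sense double-stranded RNA (Tlr3, from 45.4 and 39.8 CPM to 13.9 and 19 CPM) and profilin of protozoa (Tlr11 and Tlr12, by 1.65 and 0.79 on the log2 scale). Several of these calls rested on single libraries. Without knockout-labelled replicate 1 the adjusted p of Myd88, Irak3, Tlr3 and Tlr12 were 0.0999, 0.059, 0.0898 and 0.072. Without WT replicate 2 those of Tlr11, Myd88 and Irak3 were 0.101, 0.056 and 0.0524, and without WT replicate 1 that of Myd88 was 0.0518.

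Of 26 feedback inhibitors of cytokine and inflammatory signalling 13 were higher, 2 lower and 11 did not pass (median 0.429). Cish, a suppressor of Stat5 signalling, rose from 2.43 and 4.28 CPM to 20.9 and 17 CPM (2.50 ± 0.27). Tnip1 and Tnip3, partners of the deubiquitinase A20, rose by 0.73 ± 0.11 and 0.93 ± 0.15. The phosphatase genes Dusp6 and Dusp10 fell by 0.94 and 1.18 on the log2 scale, and lost their calls without WT replicate 2 (adjusted p of 0.207 and 0.0843) or knockout-labelled replicate 1 (0.281 and 0.137). Dusp6 also lost it without knockout-labelled replicate 2 (0.0785). The list had 3 members higher and 0 lower without knockout-labelled replicate 1.

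Markers of DC identity were present in all 4 libraries. Flt3, the growth factor receptor of DC progenitors, was at 429 and 372 CPM in WT and at 421 and 403 CPM under the knockout label, a difference within the spread of WT (adjusted p = 0.81). Itgax, which encodes CD11c, and Irf4, a transcription factor of the cDC2 subset, did not pass (-0.32 ± 0.15 and 0.13 ± 0.12). Zbtb46, a transcription factor of conventional DCs, rose from 125 and 113 CPM to 231 and 182 CPM (0.80 ± 0.13, adjusted p = 0.00515). Irf8, a regulator of the cDC1 subset, rose from 1248 and 1237 CPM to 2432 and 1923 CPM (0.81 ± 0.15), and Runx3 by 1.32 ± 0.15. Of 20 core DC genes 4 were higher and 3 lower, against 12.0% and 5.98% of all tested genes, with a median of -0.0272. Zbtb46 overlaps other genes, and the adjusted p of Irf8 was 0.0761 without knockout-labelled replicate 1.

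Of 28 genes of mature, migratory DCs 14 were higher and 1 lower, with a median of 0.726. Ccr7, which guides DCs to lymph nodes, stood at 3503 and 2752 CPM in WT and at 5708 and 4817 CPM under the knockout label (0.75 ± 0.17, adjusted p = 0.0189). Ccr7 was thus already abundant in unstimulated WT, and at 5917 to 7447 CPM in the LPS libraries. Fscn1, an actin-bundling protein of DC dendrites, rose from 4393 and 3880 CPM to 8366 and 7058 CPM (0.90 ± 0.17). Cd274, which encodes PD-L1, rose from 265 and 171 CPM to 785 and 593 CPM (1.66 ± 0.24), Cd200, an inhibitory ligand, by 1.51 ± 0.18, and Stat4 by 1.13 ± 0.16. Cd274 overlaps Plgrkt. The member that fell was Icosl, ligand of the T cell receptor ICOS, from 202 and 214 CPM to 126 and 139 CPM (-0.65 ± 0.13). The adjusted p of Ccr7, Fscn1 and Icosl were 0.145, 0.0733 and 0.0813 without knockout-labelled replicate 1, and 7 members of the list were then higher. Those of Ccr7 and Icosl were 0.0823 and 0.0552 without WT replicate 2.

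Costimulatory ligands moved unevenly, with 7 of 13 higher and 2 lower. Cd86, ligand of CD28, rose from 79.4 and 82.1 CPM to 202 and 164 CPM (1.18 ± 0.13), and Tnfsf4, the OX40 ligand, from 9.17 and 8.32 CPM to 73.8 and 52.6 CPM (2.85 ± 0.21). Slamf1 rose by 1.65 ± 0.28. Besides Icosl, Cd48 fell, from 49.1 and 65.7 CPM to 36.1 and 42.2 CPM, with an adjusted p of 0.0441 that became 0.252 and 0.249 without WT replicate 2 and without knockout-labelled replicate 1. Without the latter, 3 members were higher and 0 lower. Among 22 checkpoint and suppressive genes 9 were higher and 3 lower (median 0.833), and without that replicate 6 were higher and 0 lower.

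The cDC1 subset of DCs cross-presents antigen to CD8 T cells. Of 18 tested cDC1 genes 8 were lower, 2 higher and 8 did not pass, with a median of -1, against -0.011 over all tested genes. Their summed CPM was 3584 and 3995 in WT and 3554 and 3525 under the knockout label. Irf8 alone, which rose, held 1248 and 1237 CPM of this in WT and 2432 and 1923 CPM under the knockout label. The sums therefore hide the decreases of other members. Xcr1, the chemokine receptor that marks cDC1, fell from 11.1 and 9.79 CPM to 1.35 and 3.66 CPM (-2.05 ± 0.40, adjusted p = 0.0116). Clec9a, the receptor by which cDC1 recognise dead cells, fell from 38.9 and 48.5 CPM to 11.9 and 13.5 CPM (-1.78 ± 0.22, adjusted p = 0.00181). Cadm1, an adhesion molecule of cDC1, fell from 90.2 and 128 CPM to 21.7 and 45.2 CPM (-1.70 ± 0.39). The higher members were Irf8, given above, and Ifi205, an interferon-inducible gene (1.15 ± 0.18). The LPS libraries held still less Clec9a, 5.95 to 11.3 CPM, and 1.5 to 3.05 CPM of Xcr1. In bulk RNA, fewer cells of a subset and less RNA per cell cannot be told apart. Leaving out WT replicate 1, WT replicate 2 or knockout-labelled replicate 1 took the adjusted p of Cadm1 to 0.0518, 0.15 and 0.157, and 3 cDC1 genes were lower without knockout-labelled replicate 1 or WT replicate 2. Of 19 tested genes of the cDC2 subset 0 passed in either direction, with a median of -0.0711, which became 0.0462 without WT replicate 2.

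**Figure D4:**
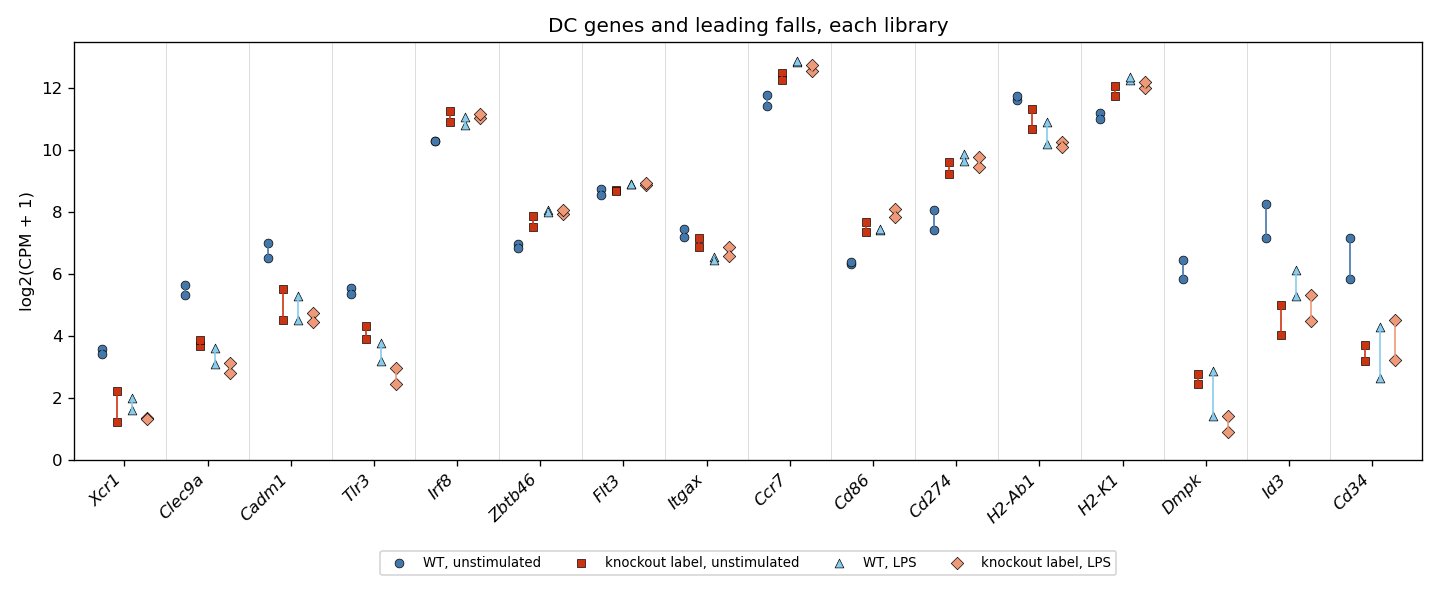
Log2(CPM + 1) of DC genes and of 3 genes with large decreases, with the 2 libraries of each BMDC group joined by a line. Xcr1, Clec9a, Cadm1 and Tlr3 are lower and Irf8, Zbtb46, Ccr7, Cd86, Cd274 and H2-K1 higher under the knockout label, while the unstimulated groups overlap for Flt3.

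Of 20 MHC class I presentation genes, 12 were higher and 0 lower (median 0.463). H2-K1, a classical class I heavy chain, rose from 2334 and 2054 CPM to 4289 and 3403 CPM (0.81 ± 0.16), H2-Q4 by 1.33 ± 0.17 and H2-T23 by 0.67 ± 0.13. Of 16 MHC class II genes, 2 were higher and 1 lower, with a median of -0.525. The share of class II genes called, 18.8%, lies near the 18.0% of all tested genes. H2-Ab1, a class II chain, stood at 3102 and 3391 CPM in WT and at 1612 and 2532 CPM under the knockout label (-0.65 ± 0.27, adjusted p = 0.134), H2-Aa at -0.60 ± 0.20 (adjusted p = 0.0694) and the invariant chain Cd74 at -0.56 ± 0.20 (adjusted p = 0.0819). None of these class II genes passed although their groups did not overlap, as held for 64.0% of all genes. Those called higher were the lysosomal enzymes Ifi30 (0.62 ± 0.16) and Lgmn (0.71 ± 0.15), and the one called lower was Ciita. Leaving out knockout-labelled replicate 1 left 1 class I gene and 0 class II genes higher. The adjusted p were then 0.0904 for H2-K1, 0.0777 for H2-T23, 0.202 for Ifi30 and 0.137 for Lgmn. They were 0.0549 for H2-K1, 0.13 for Ifi30 and 0.083 for Lgmn without WT replicate 2, and 2 class I genes were higher.

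**Figure D5:**
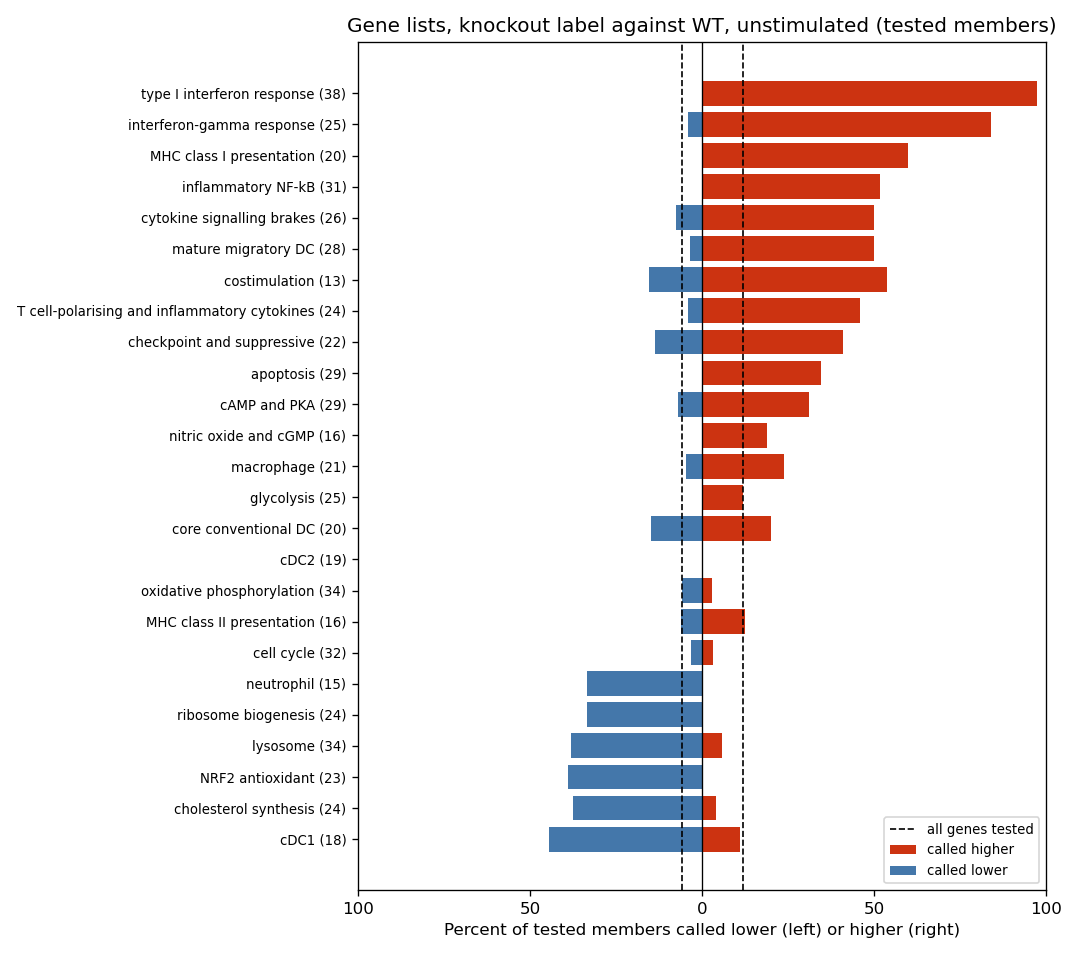
Percent of tested members called higher (right) or lower (left) in each of 25 gene lists, with the number of tested members in parentheses. Dashed lines mark 12.0% and 5.98%, the shares over all tested genes, which are not matched to the level of each list. The interferon lists reach furthest to the right, and the cDC1, NRF2, lysosome, cholesterol, ribosome biogenesis and neutrophil lists reach furthest to the left.

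Of 15 chemokine receptors 5 were higher and 2 lower. There were 1 higher and 1 lower without knockout-labelled replicate 1, and 2 higher and 1 lower without WT replicate 2. Cxcr5, which guides cells to B cell follicles, rose from 3.7 and 3.71 CPM to 32.2 and 25.2 CPM (2.95 ± 0.20, adjusted p = 0.000502), and it overlaps Bcl9l. Cxcr4, the receptor of the retention chemokine Cxcl12, rose from 106 and 75.8 CPM to 248 and 181 CPM (1.24 ± 0.21), with an adjusted p of 0.057 without knockout-labelled replicate 1. Cxcr5 stood at 23.7 to 57.4 CPM in the LPS libraries, so the unstimulated knockout-labelled libraries lay within that range.

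Among 21 C-type lectins and Siglecs 6 were higher and 2 lower, against 2 and 1 without knockout-labelled replicate 1 and 3 and 1 without WT replicate 2. Siglecg, an inhibitory sialic acid receptor, rose from 7.02 and 10.6 CPM to 56.9 and 40.8 CPM (2.47 ± 0.23), and Clec4e, which senses mycobacterial glycolipid, from 19.5 and 28 CPM to 101 and 84.3 CPM (1.97 ± 0.22). Siglec1, an adhesion receptor induced by interferon, rose by 2.87 ± 0.50 and lost its call without either WT library or knockout-labelled replicate 1 (adjusted p of 0.0598, 0.0869 and 0.086). Of 21 growth factor and cytokine receptor genes 3 were higher and 2 lower, where 12.0% and 5.98% of all tested genes were, and 1 was higher and 0 lower without knockout-labelled replicate 1. Il15ra, which presents interleukin-15, rose from 122 and 90.7 CPM to 303 and 205 CPM (1.26 ± 0.20). Ifngr1, the ligand-binding chain of the interferon-gamma receptor, fell from 193 and 217 CPM to 128 and 160 CPM (-0.51 ± 0.12). Its adjusted p was 0.114 without WT replicate 2 and 0.133 without knockout-labelled replicate 1.

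Of 26 immediate early and stress genes 7 were higher and 0 lower, with a median of 0.115. There were 3 higher without knockout-labelled replicate 1. Without knockout-labelled replicate 2 there were 8 higher and 2 lower with a median of -0.139, and without WT replicate 1 there were 5 higher and 2 lower. Fosl2, an AP-1 subunit, rose from 21.2 and 26.8 CPM to 131 and 82.3 CPM (2.15 ± 0.22), and Nr4a2, an orphan nuclear receptor, from 80 and 65.6 CPM to 180 and 159 CPM (1.22 ± 0.12). Of 25 integrin and adhesion genes 4 were higher and 4 lower, but 0 passed without knockout-labelled replicate 1, and 0 were higher and 1 lower without WT replicate 2. Itgb7, the beta chain of gut-homing integrins, fell from 566 and 701 CPM to 268 and 434 CPM (-0.85 ± 0.23), and Cd44, the hyaluronan receptor, from 363 and 345 CPM to 190 and 246 CPM (-0.70 ± 0.13). The adjusted p of Itgb7 was 0.058, 0.19 and 0.148 without WT replicate 1, WT replicate 2 or knockout-labelled replicate 1, and that of Cd44 0.0602 without the last. Of 21 lipid uptake and efflux genes 4 were higher and 4 lower, and 1 was higher and 0 lower without knockout-labelled replicate 1 or without WT replicate 2. Leaving out knockout-labelled replicate 2 gave 2 higher and 6 lower, and leaving out WT replicate 1 gave 5 higher and 2 lower. Abca1, the cholesterol exporter of the plasma membrane, rose from 34 and 13.3 CPM to 187 and 97.8 CPM (2.59 ± 0.61), while Scarb1, a lipoprotein receptor, fell from 72.1 and 105 CPM to 40 and 55.6 CPM (-0.89 ± 0.20). Both lost their calls without WT replicate 2 (0.153 and 0.098) and without knockout-labelled replicate 1 (0.242 and 0.132), and Abca1 also without knockout-labelled replicate 2 (0.0505).

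Among called genes averaging 2 or more in log2 CPM, the largest decrease was in Dmpk (chr7:19083646-19093821), a muscle-type kinase gene known from myotonic dystrophy, from 56 and 85.7 CPM to 4.5 and 5.83 CPM (-3.77 ± 0.52, adjusted p = 0.00562). Its neighbour Dmwd (chr7:19076112-19082778) fell from 20.3 and 30.7 CPM to 6.61 and 7.11 CPM (-1.89 ± 0.30). The LPS libraries of both labels held 0.875 to 6.34 CPM of Dmpk and 2.61 to 4.94 CPM of Dmwd. High levels of this pair were therefore seen only in the 2 unstimulated WT libraries among the 8. Their adjusted p were 0.0893 and 0.0523 without knockout-labelled replicate 1.

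Id1 and Id3, inhibitors of helix-loop-helix transcription factors that respond to BMP signals, fell by 3.59 and 3.27 on the log2 scale. Id3 stood at 142 and 305 CPM in WT and at 15.2 and 30.9 CPM under the knockout label, and Id1 at 7.68 and 39.9 CPM against 0.976 and 2.92 CPM. The WT replicates differed from each other by more than 2-fold in these genes. The groups did not overlap, as held for every called gene and for 64.0% of all tested genes. Smad6, an inhibitor of BMP signalling, fell by 1.08 on the log2 scale, while Eng, a co-receptor of the family, rose by 1.34 ± 0.15. Of 28 genes of the BMP, TGF-beta and Id list 3 were higher and 5 lower, against 12.0% and 5.98% of all tested genes. Cd34, a glycoprotein of progenitors and endothelium that overlaps Gm16897, fell from 56.9 and 143 CPM to 8.18 and 12.2 CPM (-3.29 ± 0.74). The adjusted p of Id1, Id3, Smad6 and Cd34 were 0.29, 0.134, 0.195 and 0.248 without knockout-labelled replicate 1. Without WT replicate 2 they were 0.121, 0.0556, 0.22 and 0.132, and without knockout-labelled replicate 2 those of Id1, Smad6 and Cd34 were 0.0913, 0.0666 and 0.1. The list had 1 member higher and 0 lower without knockout-labelled replicate 1.

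Other leading decreases included Hdac9, a histone deacetylase (-2.07 ± 0.38), Dnah6, a dynein heavy chain gene (-1.66 ± 0.31), and Rnase6, a secreted ribonuclease (-1.65 ± 0.32). Hdac9 stood at 7.74 and 14.6 CPM in WT and at 3.14 and 2.17 CPM under the knockout label. Among abundant genes Creg1, a glycoprotein of the endosome and lysosome, fell from 457 and 610 CPM to 160 and 272 CPM (-1.30 ± 0.26), and Rab7b, a small GTPase of late endosomes, from 280 and 262 CPM to 73.8 and 150 CPM (-1.27 ± 0.31). Nfam1, a receptor with an activation motif, fell by 1.12 on the log2 scale, and Ank, a pyrophosphate transporter, by 1.10 with an adjusted p of 0.0499, at the threshold. Leaving out WT replicate 2 took the adjusted p of Hdac9, Dnah6, Rnase6, Creg1, Rab7b, Nfam1 and Ank to 0.0573, 0.0519, 0.0742, 0.0926, 0.122, 0.106 and 0.205. Without knockout-labelled replicate 1 those of Dnah6, Rnase6, Nfam1 and Ank were 0.0627, 0.0875, 0.0501 and 0.193, and without WT replicate 1 those of Rab7b and Ank were 0.104 and 0.102.

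Lysosomal, sterol, antioxidant and ribosome-building genes were lower in several members each, and increases were few. Of 34 lysosome genes 13 were lower and 2 higher (median -0.393). Lipa, the lysosomal acid lipase, fell from 637 and 763 CPM to 137 and 340 CPM (-1.55 ± 0.41, adjusted p = 0.0438). Man2b1, a mannosidase, fell by 0.80 and Npc1, a cholesterol exporter of lysosomes, by 0.75 on the log2 scale. Its partner Npc2 rose from 820 and 767 CPM to 1729 and 1330 CPM (0.95 ± 0.14), and the protease gene Ctsz by 0.58 ± 0.14. In the fit without knockout-labelled replicate 1, 1 gene of the list was lower and 1 higher, and the same counts were found without WT replicate 2. In both fits Npc2 passed, with an adjusted p of 0.0252 in the first and 0.0248 in the second. Those of Lipa, Man2b1, Npc1 and Ctsz were 0.0814, 0.0733, 0.0849 and 0.176 without knockout-labelled replicate 1 and 0.179, 0.1, 0.067 and 0.105 without WT replicate 2, and that of Lipa was 0.093 without WT replicate 1.

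Of 24 cholesterol synthesis genes 9 were lower and 1 higher, with a median of -0.654. Sc5d, Dhcr7 and Fdft1, enzymes of the late and middle pathway, fell by 1.01, 0.91 and 0.73 on the log2 scale, Sc5d from 50.5 and 64.6 CPM to 24.4 and 32.7 CPM. Pmvk, an early enzyme of the pathway, rose from 57.7 and 48 CPM to 202 and 136 CPM (1.67 ± 0.19). Of 23 NRF2 antioxidant genes 9 were lower and 0 higher (median -0.586), among them Nqo1, a quinone reductase, from 15.2 and 29.3 CPM to 3.63 and 9.09 CPM, and Gclc, the rate-limiting enzyme of glutathione synthesis, from 430 and 355 CPM to 139 and 219 CPM. Gstm1, a glutathione transferase, and Pgd, of the pentose phosphate pathway, fell by 1.03 and 0.77 on the log2 scale. Of 24 ribosome biogenesis genes 8 were lower and 0 higher, with a median of -0.509, including Polr1a, a subunit of RNA polymerase I (-0.88 ± 0.16), Rrp12 (-0.81 ± 0.20) and Nop56 (-0.51 ± 0.11). The calls of these decreases depended on single libraries, while the list medians stayed negative whichever unstimulated library was left out. Without knockout-labelled replicate 1 the medians of the cholesterol, NRF2 and ribosome biogenesis lists were -0.501, -0.438 and -0.323. Without WT replicate 2 they were -0.559, -0.323 and -0.446. The numbers lower without knockout-labelled replicate 1 were 0 of the cholesterol, 0 of the NRF2 and 1 of the ribosome biogenesis genes, and without WT replicate 2 they were 0 in all 3 lists. With library size alone as the scale the numbers lower were 13, 11 and 14. Of the genes named from these lists, Pmvk passed when either library was left out, and Polr1a passed without knockout-labelled replicate 1 (adjusted p = 0.0374). Gclc, Rrp12 and Nop56 also lost their calls without WT replicate 1, at adjusted p of 0.092, 0.065 and 0.0527.

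Among energy metabolism genes, hypoxia-associated genes had 6 of 23 members higher and 0 lower (median 0.621). Ddit4, an inhibitor of mTOR, rose from 25.5 and 28.8 CPM to 149 and 111 CPM (2.26 ± 0.21), Vegfa, the vascular growth factor, from 21.1 and 24.1 CPM to 104 and 73.1 CPM (1.97 ± 0.25), and Mxi1, an antagonist of Myc, by 1.44 ± 0.15. There were 4 hypoxia genes higher without knockout-labelled replicate 1 and 3 without WT replicate 2. Glycolysis had 3 of 25 members higher and 0 lower (median 0.106), a share equal to the 12.0% of all genes. In the arginine list 4 of 16 were higher and 3 lower, the increases including Nos2, Arg1 and the arginine transporter Slc7a2 (2.98 ± 0.45). Of 34 oxidative phosphorylation genes 1 was higher and 2 lower, and of 18 genes of the AMPK list 2 were higher and 2 lower. The shares called in these 2 lists were 8.82% and 22.2%, against 18.0% of all tested genes. Acsl1 and Dgat1, which activate and store fatty acids, rose by 1.75 ± 0.18 and 1.55 ± 0.16, while Acaca, which starts their synthesis, fell by 0.69 on the log2 scale and had adjusted p of 0.0519 and 0.0508 without WT replicate 2 and without knockout-labelled replicate 1. Ptges, which makes prostaglandin E, rose from 0.829 and 0.844 CPM to 14.8 and 9.63 CPM (3.85 ± 0.34).

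Of 29 apoptosis genes 10 were higher and 0 lower, including Bcl2l11, which encodes the death promoter Bim (1.33 ± 0.15), and Casp4, the sensor of intracellular LPS known as caspase-11, from 9.51 and 11.8 CPM to 35.9 and 28.5 CPM (1.60 ± 0.24). Of 30 genes of the unfolded protein and integrated stress response 2 were higher and 5 lower, against 12.0% and 5.98% of all tested genes. Asns, an asparagine synthetase, fell by 1.61 and Chac1, a glutathione-degrading enzyme, by 1.58 on the log2 scale, with adjusted p of 0.186 and 0.204 without knockout-labelled replicate 1 and of 0.107 and 0.193 without WT replicate 2. With knockout-labelled replicate 1 left out, 2 apoptosis genes were higher and 0 genes of the stress list passed. With WT replicate 2 left out, 4 apoptosis genes were higher. Of 32 cell cycle genes 1 was higher and 1 lower, with a median of -0.499. The share of cell cycle genes called was 6.25%, against 18.0% of all tested genes.

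Marker lists of other cell types differed in direction. Neutrophil genes were mostly lower, with 3 of 15 above 0 and a median log2 fold change of -0.856. Of 10 natural killer and cytotoxic genes 3 were higher and 0 lower (median 0.665). Their summed CPM was 652.2 and 568.2 in WT, 1400 and 1040 under the knockout label and 1479 to 1634 with LPS. Ncr1, a natural killer cell marker, was counted 8 and 25 times in unstimulated WT and 14 and 14 times under the knockout label. Of 21 tested macrophage genes 5 were higher and 1 lower (median 0.493). Their summed CPM was 9317 and 4941 in WT, 5270 and 5682 under the knockout label and 1991 to 7778 with LPS, so that the groups overlapped. Adgre1, a defining macrophage marker that was picked after its values were seen, stood at 77 and 91.7 CPM in WT and at 165 and 135 CPM under the knockout label (0.83 ± 0.26, adjusted p = 0.0642). Marco, a scavenger receptor, rose from 0.166 and 0.675 CPM to 8.02 and 4.1 CPM, and C1qa, a complement component, from 5.8 and 3.04 CPM to 53.4 and 30.4 CPM. Mrc1, the mannose receptor, fell from 13.3 and 10.7 CPM to 4.28 and 6.82 CPM. The adjusted p of C1qa was 0.153 and that of Mrc1 0.258 without knockout-labelled replicate 1, 0.12 and 0.0902 without WT replicate 2, and 0.0518 and 0.138 without WT replicate 1. Of the macrophage genes 2 were higher and 0 lower without knockout-labelled replicate 1, and likewise without WT replicate 2.

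Of 16 monocyte genes 5 were higher and 1 lower, with summed CPM of 1493 and 2321 in WT and 1911 and 1857 under the knockout label. Besides Hp they included Vcan, a matrix proteoglycan (2.58 ± 0.29), and Fcgr1, the high-affinity IgG receptor (2.50 ± 0.41), which is also interferon-inducible and had adjusted p of 0.0947 and 0.0716 without knockout-labelled replicate 1 and without WT replicate 2. Complement genes C3 and Cfb rose by 2.71 ± 0.23 and 3.50 ± 0.57. Of 15 neutrophil genes 0 were higher and 5 lower, with summed CPM of 182.1 and 280.2 in WT, 145.9 and 172.1 under the knockout label and 103 to 124 with LPS. Ltf and Ngp, granule proteins, and S100a8 fell by 1.48, 1.13 and 0.99 on the log2 scale, and without knockout-labelled replicate 1 their adjusted p were 0.0728, 0.152 and 0.116, and without WT replicate 2 0.0566, 0.106 and 0.0957. Of the neutrophil genes 0 passed without knockout-labelled replicate 1, and 2 were higher and 0 lower without WT replicate 2. Ly6g, which defines neutrophils, was counted 1 and 0 times in WT and 0 times in both knockout-labelled libraries.

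Hdc, the histamine-making enzyme on the mast cell and basophil list, rose from 1.05 and 1.18 CPM to 26.7 and 13.2 CPM (4.15 ± 0.38), while 0 of the other 9 tested genes of that list passed. Of 10 B cell genes and 15 fibroblast genes 0 passed in either direction, and of 11 T cell genes 1 was higher and 1 lower. The share of T cell genes called, 18.2%, lies near the 18.0% of all tested genes. Cd3e was counted 14 and 7 times in WT and 16 and 20 times under the knockout label, and Ms4a1, a B cell marker, 35 and 21 against 7 and 15 times. The part of these cell types in the results above was not tested.

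In the comparison of labels with LPS, 0 of 13072 genes passed by edgeR (0% against 18.0% without LPS; smallest adjusted p 0.166). At an unadjusted p under 0.05 there were 1330 genes with LPS and 4478 without. The DESeq2 Wald test called 150 genes with LPS, limma-voom 0, and edgeR without a filter on low counts 56. The 1575 genes higher without LPS had a median log2 fold change of 0.846 without and 0.0439 with LPS. For the 782 lower genes the medians were -0.693 and -0.12. Some lists differed more with LPS than without, although none of their genes passed. The median was 1.35 with LPS against 0.621 without for the hypoxia list, 1.18 against 0.106 for glycolysis, and -0.777 against 0.493 for the macrophage list. On principal component 2, which held 10.5% of the variance, the WT libraries with LPS lay at 21.9 and 5.02 and the knockout-labelled ones at -28.7 and -3.92.

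The test of the difference itself, the interaction of label and LPS, passed for 585 genes (4.48%), of which 74 were positive and 511 negative. Among the 1575 higher genes 503 had a negative interaction that passed, and among the 782 lower genes 53 had a positive one. The interaction uses the same unstimulated libraries, so it is not independent evidence of the unstimulated difference. The interaction passed for 195 genes without knockout-labelled replicate 1 and for 222 without WT replicate 2, and leaving out single LPS libraries gave 58 to 410. Saa3 had an interaction of -10.17 ± 0.93 and Nos2 of -7.07 ± 0.53 on the log2 scale (edgeR, adjusted p of 0.00668 and 0.00586).

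Set against the range of the 4 LPS libraries, the unstimulated knockout-labelled mean lay below it for 793 of the 1575 higher genes, within it for 605 and above it for 177. For the 782 lower genes it lay above the range for 449, within it for 266 and below it for 67. Most called genes in both directions thus stood between unstimulated WT and the LPS libraries or at the level of the LPS libraries. These positions describe levels and carry no test.

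Within 10 Mb on either side of the gene 13 of 59 tested genes passed, which is 22% against 18.0% over all genes, 8 of them higher and 5 lower.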

How the data were processed

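RNA-seq gene counts of 8 BMDC libraries, 2 per genotype label and LPS state, were used as deposited by the authors: whole-number counts per gene symbol, with no normalization. The submitters' processing notes name the tools HISAT2 2.2.1, featureCounts 2.0.1 and fastp 0.12.4 and, as the mouse build, mm10, and the strand setting is not given in the sources used here. All 8 count columns matched a sample title, and 0 were left unmapped. The table of tumour dendritic cells was not used. Replicates differed by more than sampling noise (chi-square per degree of freedom 14.8 to 25.6), so none was counted as a repeat of another.

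Genes were kept by filterByExpr at a minimum count of 10, scaled by TMM and fitted with edgeR 4.0.16 (robust quasi-likelihood, 1 mean per group, R 4.3.3) over all 8 libraries, with p-values adjusted by Benjamini-Hochberg over all genes tested and a threshold of 0.05. Errors beside log2 fold changes are standard errors. CPM are counts scaled to a common library total after TMM. Alternatives used limma 3.58.1 and DESeq2 1.42.0. The code was tested on simulated data. Intervals of count ratios are at the 95% level. Libraries of 16.1 to 19.7 M counts make differences of a few counts in low genes undetectable.

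The comparison and the gene lists were chosen with earlier results of these data known. Lists are described by counts and medians, not tested. Genes were named by these rules: the 12 largest increases and decreases among called genes that did not overlap and averaged 2 or more in log2 CPM, the 6 with the highest CPM in each direction among those changed more than 2-fold, up to 3 called members of each list per direction by p, the nitric oxide and cyclic GMP genes that averaged 0 or more in log2 CPM, and the DC markers. Not every gene so named is described, and some are not reported here. Of the tested symbols 13033 matched RefSeq entries of GRCm38.p6, some list members through another symbol (Septin3, Marchf1, Rptor, Car9), and Ahsp and Mrvi1 matched none. Of the tested symbols 119 share identical counts in every library with another symbol, 14 of them called. Wherever a gene overlaps another, reads of the pair cannot be told apart without the strand setting.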

Additional observations from a re-analysis of the deposited data

Results flagged for a closer look

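Of the 165 genes described above, 72 had a difference between genotype labels that itself differed between the LPS states, by edgeR's interaction test over 8 libraries (adjusted p of 0.00291 to 0.0489). Each value below is the log2 fold change of knockout label over WT with LPS minus that without. The label difference with LPS passed for none of them by edgeR, the smallest adjusted p being 0.166. All 72 rest on the same unstimulated libraries, so they are not separate observations. Over all tested genes the interaction passed for 585 of 13072 (4.48%). Most of the 165 genes were described because they differed without LPS, and the interaction subtracts that same difference. A larger share among them, with opposite sign, was therefore built in.

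Among the genes nearly silent in unstimulated WT the interactions were Saa3 -10.17, Nos2 -7.07, Fpr2 -7.01, Slfn4 -6.98, Olfr56 -6.81, Ifi206 -6.66, Slfn1 -6.38, Gstt1 -6.29, H2-Q10 -6.05, Wfdc9 -5.92, Gbp6 -5.55 and Iigp1 -5.33. Among other inflammatory, acute-phase and complement genes they were Il1b -3.97, Acod1 -3.15, Il6 -2.44, Il18bp -1.54, Ccl5 -1.03, Myd88 -0.62, Casp4 -1.96, Ptges -4.39, Hp -3.33, C3 -2.73, Cfb -3.48, Hdc -3.65, Marco -4.45, Vcan -3.01, Fcgr1 -3.17, Clec4e -2.62, Siglec1 -3.66 and Siglecg -2.11. In the interferon-responsive genes they were Isg15 -4.28, Irf7 -4.03, Bst2 -1.86, Helz2 -2.67, Ifi205 -1.61, Gbp5 -3.02, Tgtp1 -3.70, Cxcl9 -3.62 and Cxcl10 -3.66.

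Bst2, an antiviral membrane tether on the plasmacytoid DC list, stood at 111 and 109 CPM in unstimulated WT, at 379 and 248 CPM under the knockout label and at 290 to 441 CPM in the LPS libraries. Both unstimulated knockout-labelled libraries thus lay above WT and below or within the LPS range.

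In antigen presentation and DC genes the interactions were H2-K1 -1.01, H2-Q4 -1.40, H2-T23 -0.85, Ifi30 -1.01, Zbtb46 -0.83, Runx3 -1, Cd274 -1.80, Cd200 -1.35, Tnfsf4 -2.09, Cacnb3 -1.75, Cish -1.97 and Cxcr5 -1.88. In metabolic, survival and other regulators they were Arg1 -4.58, Slc7a2 -3.19, Gch1 -1.13, Pfkfb3 -1.55, Acsl1 -1.69, Dgat1 -1.35, Ddit4 -1.46, Mxi1 -0.98, Npc2 -0.91, Ctsz -0.89, Adora2a -0.72, Bhlhe40 -1.01, Bcl2l11 -1.15, Eng -1.44, Fosl2 -1.48 and Nr4a2 -0.88.

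The interaction was positive in 5 genes that were lower without LPS: Tlr12 1.19, Icosl 0.95, Ltf 2.16, Ngp 1.80 and Ifngr1 1.05.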

How the results depend on the processing

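1 setting, keeping 1 symbol of each set with identical counts, was chosen after seeing the data and gave 2352 genes. The number of genes called between the unstimulated groups (2357) was 2352 to 2583 under all other scalings, filters, tests and the replicate block, except in a fit of only the 4 unstimulated libraries, which gave 993 genes, 784 higher and 209 lower. With library size alone the split moved to 1282 higher and 1301 lower. Leaving out 1 unstimulated library gave 593 to 2717 genes, 527 to 1643 higher and 66 to 1074 lower. For the labels with LPS, where 0 genes passed by edgeR (1330 at an unadjusted p under 0.05), 56 passed with no filter on low counts (42 higher, 14 lower) and 150 by the DESeq2 Wald test (113 higher, 37 lower), and leaving out 1 LPS library gave 0 to 65 (0 to 51 higher, 0 to 14 lower). For the interaction (585 genes, 74 positive, 511 negative), no filter gave 948, 193 of them positive, the DESeq2 Wald test gave 1082 (254 positive, 828 negative), and leaving out 1 library gave 58 to 1076 (1 to 252 positive, 57 to 824 negative). The cause of these shifts was not tested.

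The labels do not say whether replicate numbers mark a shared mouse or day. Between groups, differences of replicate 1 minus replicate 2 correlated across genes at 0.198, 0.364, -0.24, 0.197, -0.105 and -0.301. The highest, 0.364, was between unstimulated WT and WT with LPS. With 1 difference per group these values cannot settle whether the libraries were paired. With the replicate block 2501 genes were called without LPS (1629 higher, 872 lower), 2 with LPS (2 higher, 0 lower) and 516 for the interaction (59 positive, 457 negative).

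Of the 223 genes named by rule, 0 reversed under any of these settings. Calls were lost for 120 without knockout-labelled replicate 1, 101 without WT replicate 2, 77 in the fit of 4 libraries, 36 without WT replicate 1, 29 with no filter, 10 without knockout-labelled replicate 2 and 6 under the block. Of the 53 lists, the medians of 3 changed sign with library size alone: growth factor receptors (-0.00776), glycolysis (-0.00394) and AMPK (-0.0498). With no filter those of the T cell and erythroid lists were -0.09 and -0.161, and with at least 1 CPM in 2 libraries that of the chemokines was 0.00194. Without WT replicate 2 the medians of 11 lists changed sign: plasmacytoid DC 0.738, chemokine receptors 0.537, chemokines 0.258, stem and progenitor 0.245, C-type lectins 0.243, mast cell and basophil 0.057, cDC2 0.0462, prostaglandin 0.0431, T cell -0.0148, fibroblast -0.0531 and erythroid -1. Without WT replicate 1 there were 4: core DC 0.049, Toll-like receptor pathway 0.0384, monocyte -0.0019 and AMPK -0.0228. Without knockout-labelled replicate 1 there were 5: C-type lectins 0.0915, chemokines 0.0346, glycolysis -0.0241, T cell -0.283 and erythroid -0.47. Without knockout-labelled replicate 2 there were 2: immediate early genes -0.139 and erythroid -0.653. The highest medians with 1 library left out were 0.219 for the T cell list, 1.3 for the erythroid list and 0.934 for the fibroblast list. Leaving out a library of an arm of 2 assumes that the lone library varies like the other groups. Depth limits the genes at a few counts in WT, whose fold changes are imprecise.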
